A study of Mus musculus with 17 samples.

Results

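The 10 genes of hyaluronan synthesis and turnover described here were measured in mouse pancreatic stellate cells kept in 4 media. They were chosen by function, with earlier results of these data known. They are hyaluronan synthases (Has1, Has2, Has3), genes of hyaluronan breakdown (Hyal1, Hyal2, Cemip, Cemip2) and genes whose proteins bind hyaluronan (Cd44, Tnfaip6, Vcan). They are 10 of the 35896 gene IDs that each library lists, and all 10 passed the filter on low counts that left 13923 genes for testing.

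Hyaluronan is a long unbranched sugar polymer of the extracellular matrix, made at the plasma membrane by synthases that join UDP-sugars in turn and push the growing chain out of the cell. It is cut outside the cell and at its surface, taken up, and degraded further in lysosomes, while receptors and proteoglycans hold it at the cell and cross-link it. In the pancreas the polymer is known for its accumulation in the stroma of ductal tumours, where fibroblasts derived in part from stellate cells produce matrix.

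The study asked how stellate cells respond to TGF-beta, to medium conditioned by pancreatic tumour organoids (CM), and to that medium when the ERBB receptor kinases are inhibited. All cells were wild type on the C57BL/6J strain, belonged to the lines PSC4 or PSC5, grew in Matrigel, a basement membrane extract that sets as a gel, and were collected on day 4. Control medium had 5 libraries (PSC4 at passages 23, 24 and 25, and PSC5 at passages 27 and 28), and TGF-beta at 20 ng/mL had 4 (passages 24, 25, 27 and 28). CM had 4 libraries and CM to which 300 nM neratinib was added, a drug that blocks ERBB kinases, had 4 (passages 23, 24, 27 and 28 in both), with the medium coded T8 at passages 23 and 27 and T6 at passages 24 and 28, codes that the labels do not explain. Passages 23, 24 and 25 are replicates 1, 2 and 3 of PSC4, and passages 27 and 28 are replicates 1 and 2 of PSC5. Each line is a single cell line and nothing states that replicates were separate derivations, so p-values measure the spread between these libraries, which may be technical. In bulk RNA, fewer cells of a kind and less RNA per cell cannot be told apart.

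Library totals lay between 22168953 and 29421447 estimated counts, and 3 counts in 1 library were worth 0.102 to 0.135 CPM. CPM values (counts scaled to library size) were taken relative to library totals scaled by TMM factors. The 3 libraries labelled PSC4 replicate 1 stood apart from the rest of their line. After removal of group means, their correlation with the other PSC4 libraries across genes had a median of -0.31 (14 pairs), and that with PSC5 libraries a median of 0.20 (18 pairs), so each result below is also given without them where the call differs. The summed CPM of 10 stellate and fibroblast markers was 5447 to 6979 in control, although Des (mean 2.47 CPM) and Lum (mean 7.24 CPM) were low. That sum was 9907 to 20443 under TGF-beta, 5609 to 6754 in CM and 4075 to 6779 with neratinib. The markers did not move together. Against control, 4 of the 10 were called higher and 2 lower under TGF-beta (median log2 change 0.27). In CM 1 was called higher and 1 lower, and with neratinib 1 higher and 3 lower (median -0.48). The immune markers Ptprc, Adgre1, Cd3e and Itgam never passed 3 counts in a library. The summed CPM of the immune markers was 2.11 to 3.62 in control and 2.84 to 13.5 with neratinib, where Cd68, a macrophage lysosomal protein, reached 12.3 CPM in 1 library, and none of those tested was called. The summed CPM of 5 endothelial markers was 2.41 to 5.51 in control, 3.66 to 5.60 under TGF-beta, 1.45 to 2.08 in CM and 1.38 to 2.30 with neratinib, where 3 of the 4 tested were called lower than control. The part of either list in the results was not tested. The summed CPM of 10 epithelial markers was 15.8 to 23.5 in control and 14.8 to 20.3 under TGF-beta, but 148 to 178 in CM coded T6 against 20.4 to 42.0 in CM coded T8, and 143 to 319 against 9.70 to 51.1 with neratinib. Of these markers, 8 of 10 were called higher in CM and 9 of 10 in CM with neratinib, against control, while Krt8 held at most 2 counts in any control library. The part of these epithelial transcripts in the results for CM was not tested, and results that differ without the T6 libraries are given both ways.

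Promoter sequences are shown for the genes that changed under TGF-beta and had an entry in the RefSeq promoter table (GRCm38.p6), 4 in all. The table held 7 of the 10 genes. Has2, Has3 and Cemip2 had none. The 300 bases shown run from 250 before to 50 after the start site, 5′ to 3′ on the gene's strand, at chr17:17855139-17855438 (Has1, minus strand), chr9:107576700-107576999 (Hyal1, plus strand), chr7:84086456-84086755 (Cemip, minus strand) and chr2:102901616-102901915 (Cd44, minus strand). Has1 and Cd44 rose and Hyal1 and Cemip fell in that comparison. Capitals mark matches, on either strand, to any of 5 letter patterns.
Has1: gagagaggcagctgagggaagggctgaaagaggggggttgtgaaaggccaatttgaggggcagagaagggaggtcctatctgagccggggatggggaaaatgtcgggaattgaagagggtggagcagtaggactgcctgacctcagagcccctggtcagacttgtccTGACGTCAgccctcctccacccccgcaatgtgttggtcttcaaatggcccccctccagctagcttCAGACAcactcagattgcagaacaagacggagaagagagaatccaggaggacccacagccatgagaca
Hyal1: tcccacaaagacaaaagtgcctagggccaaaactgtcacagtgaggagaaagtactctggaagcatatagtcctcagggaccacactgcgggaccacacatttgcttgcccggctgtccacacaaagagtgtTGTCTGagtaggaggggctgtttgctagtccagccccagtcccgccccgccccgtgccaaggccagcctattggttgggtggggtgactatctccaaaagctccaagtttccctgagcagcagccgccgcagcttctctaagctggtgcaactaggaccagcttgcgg
Cemip: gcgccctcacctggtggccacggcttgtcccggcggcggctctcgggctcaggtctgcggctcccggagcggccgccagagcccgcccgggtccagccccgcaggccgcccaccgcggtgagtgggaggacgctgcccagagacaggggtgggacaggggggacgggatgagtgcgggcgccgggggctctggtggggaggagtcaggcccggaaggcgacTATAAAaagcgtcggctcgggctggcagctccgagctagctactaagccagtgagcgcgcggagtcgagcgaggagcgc
Cd44: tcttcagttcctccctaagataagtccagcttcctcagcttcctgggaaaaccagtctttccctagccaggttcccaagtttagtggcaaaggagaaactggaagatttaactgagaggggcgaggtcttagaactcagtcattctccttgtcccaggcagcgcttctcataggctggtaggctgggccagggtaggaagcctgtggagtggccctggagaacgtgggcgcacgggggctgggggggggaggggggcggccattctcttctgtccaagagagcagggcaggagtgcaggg

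The patterns searched were the NF-kB pattern, the AP-1 pattern TGANTCA, the SMAD box CAGACA, the CRE TGACGTCA and the TATA box TATAAA, which do not overlap one another in these windows. They occurred in 1.63%, 7.81%, 21%, 1.79% and 13.6% of the 32817 promoter windows of the table. The Has1 window held a SMAD box whose first base is at -18 from the start site and a CRE at -83. Hyal1 held a SMAD box on the opposite strand at -118, and Cemip a TATA box at -29. Cd44 held none of the 5. Of the windows not shown, Tnfaip6 held an AP-1 pattern at -142 and a SMAD box at -123, and Hyal2 and Vcan held none. GC content was 73.7% in the Cemip window and 57% to 58% in the other 3 shown, against a median of 52.7% over all windows. A match is a match of letters only.

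Has2 (chr15:56665627-56694539 on GRCm38, minus strand) encodes the synthase that is the main source of hyaluronan in many mesenchymal cells. Its CPM was 35.9, 29.7 and 35.2 in control PSC4 replicates 1 to 3 and 38.0 and 40.9 in control PSC5. Under TGF-beta it was 71.1 and 84.2 in PSC4 replicates 2 and 3 and 104 and 119 in PSC5. Both PSC5 libraries stood above both PSC4 libraries there, and the lowest TGF-beta library was above the highest control library. In CM it was 63.1 and 52.9 in PSC4 replicates 1 and 2 and 85.4 and 76.4 in PSC5, again with no overlap with control. With neratinib added, the same libraries read 15.9, 36.1, 70.8 and 35.4 CPM. That group was the widest for Has2 (39.5 ± 22.9 CPM, SD, n = 4), with PSC4 replicate 1 below every control library and PSC5 replicate 1 above every one. The gene overlaps Has2os on the opposite strand, and whether the counting used strand is not given in the sources used here.

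Has1 (chr17:17843323-17855205, minus strand), a second synthase, was low. Control libraries held 2.19, 1.68, 1.34, 1.80 and 1.60 CPM (38 to 55 counts). The TGF-beta libraries held 4.73, 7.01, 3.18 and 5.61 CPM, all above control. CM libraries held 4.52, 5.50, 8.61 and 2.55 CPM, and CM with neratinib 6.13, 3.00, 5.02 and 2.15 CPM. Only PSC5 replicate 2 with neratinib fell within the control range.

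Has3 (chr8:106870242-106884566, plus strand), the other synthase, was the lowest of the 10 genes. It lay between 0.501 and 0.957 CPM in control, between 0.578 and 1.16 under TGF-beta and between 0.459 and 0.883 in CM, and these ranges overlapped. With neratinib the libraries held 0.170, 0.156, 0.173 and 0.367 CPM, which are 4, 4, 4 and 8 counts. All 4 were below the lowest library of any other medium, at a depth where few reads separate them from the level of 3 counts.

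Per kilobase of exon, Has2 made up most of the summed level of the 3 synthases. Its share was 93.4% to 95.2% in control, 92.4% to 96.7% under TGF-beta and 90.5% to 96.5% in CM. With neratinib the share was 73.0% in PSC4 replicate 1, where Has1 made up 26.4%, and 92.5% to 94.0% in the other 3 libraries. The summed synthase level was 7.45 to 10.2 CPM per kilobase in control and 18.0 to 29.5 under TGF-beta.

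**Figure D1:**
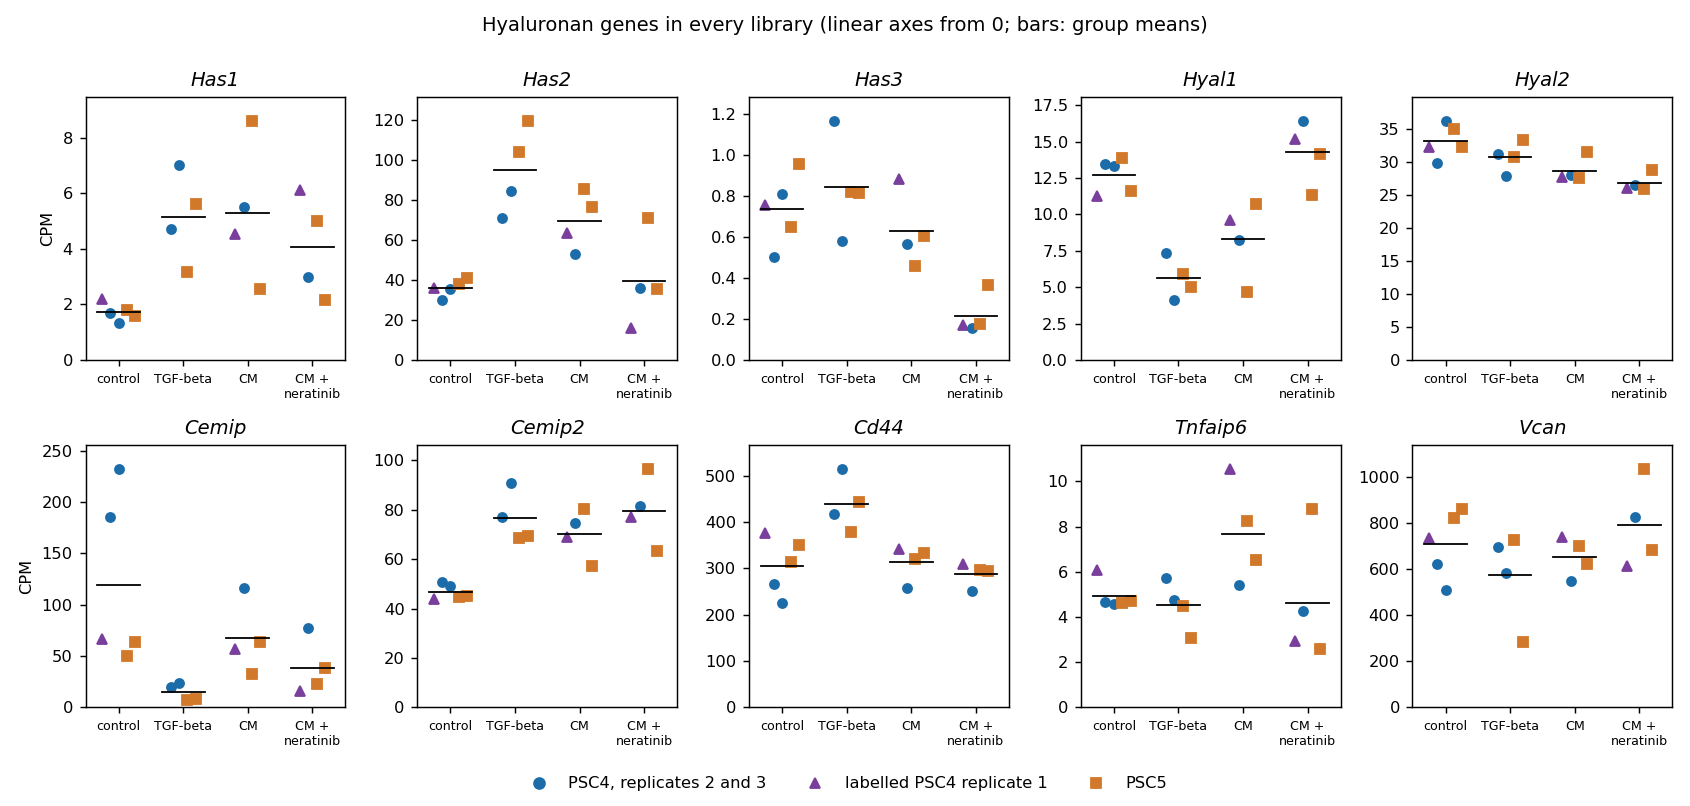
CPM of the 10 genes in each of the 17 libraries, by medium, on linear axes from 0 with a black bar at each group mean. Blue circles are PSC4 replicates 2 and 3, purple triangles the libraries labelled PSC4 replicate 1 and orange squares PSC5; the 4 TGF-beta libraries of Has2 (71.1 to 119 CPM) lie above all 5 control libraries, and those of Cemip (7.48 to 23.9 CPM) below them.

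Hyal1 (chr9:107576927-107581710, plus strand) encodes a lysosomal hyaluronidase that cuts the polymer into short pieces. Control libraries held 11.3, 13.5, 13.3, 13.9 and 11.6 CPM, and TGF-beta libraries 7.36, 4.15, 5.93 and 5.04 CPM. CM libraries held 9.65, 8.26, 4.67 and 10.7 CPM, all below the lowest control library. With neratinib the values were 15.2, 16.4, 11.4 and 14.2 CPM, within or above the control range. Hyal1 overlaps Hyal3 and Naa80 on the same strand, so the assignment of shared reads is uncertain. Hyal3 itself held 3 to 13 counts in each library.

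Hyal2 (chr9:107567945-107572779, plus strand), which encodes a hyaluronidase anchored to the cell surface, stayed between 25.9 and 36.2 CPM in all 17 libraries. Its group means were 33.1 ± 2.51 CPM (SD, n = 5) in control, 30.7 ± 2.25 (n = 4) under TGF-beta, 28.7 ± 1.92 (n = 4) in CM and 26.8 ± 1.29 (n = 4) with neratinib. The neratinib libraries (25.9 to 28.7 CPM) all lay below the control libraries (29.9 to 36.2 CPM).

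Cemip (chr7:83932857-84086502, minus strand) encodes a secreted protein needed for hyaluronan breakdown in fibroblasts of skin and joint. Control libraries held 66.8, 185 and 233 CPM in PSC4 replicates 1 to 3 and 49.7 and 64.1 CPM in PSC5. PSC4 replicate 1 was thus near PSC5 and far from the other PSC4 libraries. TGF-beta libraries held 19.8 and 23.9 CPM in PSC4 and 7.48 and 7.85 CPM in PSC5. CM libraries held 57 and 116 CPM in PSC4 replicates 1 and 2 and 32.1 and 63.4 CPM in PSC5. With neratinib the same libraries held 15.7, 77.4, 23.1 and 38.6 CPM. The TGF-beta values lay below every control and CM library.

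Cemip2 (chr19:21778342-21858360, plus strand), a membrane-bound relative of Cemip reported as a cell-surface hyaluronidase, went the other way under TGF-beta. Control libraries lay within a narrow range of 43.8 to 50.7 CPM. TGF-beta libraries held 76.9, 91.0, 68.7 and 69.3 CPM, CM libraries 68.9, 74.6, 80.4 and 57.4 CPM, and neratinib libraries 77.1, 81.4, 96.7 and 63.4 CPM. No library of the 3 treated groups overlapped control. PSC5 replicate 2, in T6 medium, was the lowest of both CM groups.

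Cd44 (chr2:102811141-102901665, minus strand) encodes the main cell-surface receptor for hyaluronan. Control libraries held 375, 265, 226, 314 and 350 CPM, with PSC4 replicate 1 the highest. TGF-beta libraries held 417, 515, 378 and 443 CPM, all above control, the lowest only just. CM libraries (257 to 341 CPM) and neratinib libraries (251 to 309 CPM) lay within the control range.

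Tnfaip6 (chr2:52038009-52056686, plus strand), also called TSG-6, encodes a secreted protein that transfers heavy chains of inter-alpha-inhibitor onto hyaluronan. It held 6.08, 4.65, 4.58, 4.63 and 4.72 CPM in control and 3.09 to 5.71 CPM under TGF-beta. CM libraries held 10.6, 5.43, 8.26 and 6.51 CPM, and neratinib libraries 2.94, 4.28, 8.78 and 2.57 CPM. PSC5 replicate 1 with neratinib stood above the other 3 of its group, which lay below every control library.

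Vcan (chr13:89655312-89742509, minus strand) encodes versican, a large proteoglycan that binds hyaluronan. Its ranges overlapped in all 4 media, with 509 to 860 CPM in control, 284 to 728 under TGF-beta, 551 to 740 in CM and 615 to 1037 with neratinib. The lowest TGF-beta library was PSC5 replicate 2, and the other 3 of that group held 585 CPM or more.

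Levels of different genes were compared per kilobase of exon only. In control, Vcan (49.1 CPM per kilobase) and Cd44 (45.1) were highest and their ranges overlapped. Hyal2 (10.0), Cemip (9.79) and Has2 (8.49) followed and also overlapped, the Cemip range of 4.06 to 19.0 being the widest. Below them came Cemip2 (5.48), Hyal1 (3.37), Tnfaip6 (2.88), Has1 (0.381) and Has3 (0.115), where of the neighbours in this order only Hyal1 and Tnfaip6 overlapped, while Cemip reached down to the Cemip2 range. Under TGF-beta, Has2 ranked after Cd44 and Vcan by mean (22.3, range 16.8 to 28.1), with no overlap with Hyal2 (9.33) below it. The Has2 range overlapped that of Vcan (19.6 to 50.3), and Has2 was above Vcan in TGF-beta PSC5 replicate 2. Cemip (1.21) there lay beside Hyal1 (1.49) and Has1 (1.14) in overlapping ranges. In CM, Has2 (16.4) again came next and lay above Hyal2 (8.70) without overlap. With neratinib it lay level with Cemip2 (9.35) at 9.33, over a range of 3.75 to 16.7 that also took in Hyal2 (8.14).

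Against control, TGF-beta raised Has1, Has2, Cemip2 and Cd44 and lowered Hyal1 and Cemip. Cemip fell furthest, 7.55-fold (log2 -2.92, SE 0.48, adjusted p = 0.000224). Has1 rose 3.00-fold (log2 1.58, SE 0.35, adjusted p = 0.00238) and Has2 2.49-fold (log2 1.31, SE 0.23, adjusted p = 0.000333). Cemip2 rose 1.65-fold and Cd44 1.43-fold, while Hyal1 fell 2.24-fold. So 6 of 10 genes were called, 4 higher and 2 lower, where 40.2% of all tested genes were called (19.7% higher and 20.5% lower). All 4 TGF-beta libraries lay beyond the control mean in the direction of the change for each of the 6. Adjusted p-values were 0.000507 for Hyal1, 0.000207 for Cemip2 and 0.00771 for Cd44, from edgeR's quasi-likelihood test adjusted by Benjamini-Hochberg over all genes. The intervals of 2 SE around the log2 change were -0.78 to 0.17 for Vcan, -0.76 to 0.51 for Tnfaip6, -0.43 to 0.82 for Has3 and -0.25 to 0.02 for Hyal2. The same 6 genes were called without the 3 libraries labelled PSC4 replicate 1, with Cemip at -3.09 and Has2 at 1.38.

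In CM against control, Has1, Has2 and Cemip2 rose. Has1 rose 3.12-fold (log2 1.64, SE 0.35, adjusted p = 0.00827), Has2 1.83-fold (log2 0.87, SE 0.23, adjusted p = 0.0201) and Cemip2 1.52-fold (log2 0.60, SE 0.12, adjusted p = 0.00461). Hyal2 passed the threshold narrowly, at -0.21 (adjusted p = 0.0488). With these, 4 of 10 genes were called against 14.2% of all genes (7.05% higher and 7.14% lower). Higher calls made up 49.7% of all calls under TMM scaling and 37.5% when libraries were scaled by their upper quartile. Hyal1 was -0.60 (SE 0.21, adjusted p = 0.0646), and -0.68 (adjusted p = 0.0355) in the fit that blocked on line and number together (the replicate block), and it also passed without CM PSC5 replicate 2 (-0.80, 0.0242). Cemip was -0.62 (interval of 2 SE -1.49 to 0.25). It was lower in CM in all 4 pairs of line and passage, with no share over all genes given beside that. Cemip was called with the replicate block once the libraries labelled PSC4 replicate 1 were left out (-0.47, SE 0.14, adjusted p = 0.0401). The other values were Tnfaip6 0.64 (0.02 to 1.27, adjusted p = 0.189), Has3 -0.22 (-0.85 to 0.41), Vcan -0.12 (-0.60 to 0.35) and Cd44 0.03 (-0.25 to 0.30). The Has2 call was lost without either control PSC5 library (0.80 and 0.83, adjusted p = 0.0593 and 0.0558), without CM PSC4 replicate 1 (0.81, 0.0592), without CM PSC5 replicate 1 (0.86, 0.0610) and without the 4 T6 libraries (0.97, 0.0712). Hyal2 lost its call without any one of 7 of the 9 libraries, and also without the T6 libraries (-0.27, 0.0999) or those labelled PSC4 replicate 1 (-0.21, 0.0918).

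With neratinib in the CM, Has1 and Cemip2 were above control and Has3, Hyal2 and Cemip below it. Has3 was 3.38-fold lower (log2 -1.76, SE 0.36, adjusted p = 0.00137), Cemip 2.59-fold lower (log2 -1.37, SE 0.45, adjusted p = 0.0232) and Hyal2 1.24-fold lower (log2 -0.31, SE 0.07, adjusted p = 0.00235). Cemip2 was 1.72-fold higher (log2 0.78, SE 0.12, adjusted p = 0.000158) and Has1 2.38-fold higher (log2 1.25, SE 0.35, adjusted p = 0.0110). These 5 of 10 stood against 43.1% called over all genes (22.2% higher and 20.9% lower). Higher calls made up 51.4% of all calls under TMM scaling and 41.1% when libraries were scaled by their upper quartile. Has2 was at 0.01 (interval of 2 SE -0.45 to 0.47) and Hyal1 at 0.17 (-0.23 to 0.58). Cd44 (-0.09), Tnfaip6 (-0.08) and Vcan (0.15) were not called either, although Tnfaip6 passed without neratinib PSC5 replicate 1 (-0.62, adjusted p = 0.0410). Without the library labelled PSC4 replicate 1 of the neratinib group, Has1 (0.99, adjusted p = 0.0545) and Cemip (-1.0, 0.0510) lost their calls. Without all 3 libraries so labelled, Has1 did (1.08, 0.0520) and Cemip did not (-1.14, 0.00295), and Cemip lost it without control PSC4 replicate 3 (-1.15, 0.0536). Without the T6 libraries Cemip was at -2.19 (adjusted p = 0.0141).

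Neratinib within CM went with lower Has2 and Has3 and higher Hyal1. The log2 change of Has2 was -0.86 (SE 0.24, adjusted p = 0.0215), from 69.4 ± 14.4 to 39.5 ± 22.9 CPM (SD, n = 4 each). That of Has3 was -1.54 (SE 0.37, adjusted p = 0.00998) and that of Hyal1 0.78 (SE 0.22, adjusted p = 0.0213). Paired by line and passage, Has2 was lower with neratinib in all 4 pairs and Hyal1 higher in all 4, as the plot of joined libraries shows. Has3 and the uncalled Cemip, Cd44 and Hyal2 were also lower in all 4 pairs, and the uncalled Cemip2 was higher in all 4. The share of all genes that moved the same way in all 4 pairs is not given here, so these directions are a description. Has2, Has3 and Hyal1 made 3 of 10 called, set against 20.5% called over all genes (10.8% higher and 9.63% lower). Cemip was -0.75 (SE 0.46, adjusted p = 0.262), and with the replicate block it was called at -0.89 (adjusted p = 0.00649). Tnfaip6 was -0.73 (adjusted p = 0.139), and -1.29 (0.00200) without neratinib PSC5 replicate 1. The other members were Has1 at -0.39 (interval of 2 SE -1.12 to 0.34), Vcan at 0.27 (-0.23 to 0.77), Cemip2 at 0.18 (-0.07 to 0.43), Cd44 at -0.12 (-0.41 to 0.17) and Hyal2 at -0.10 (-0.24 to 0.05). Without the libraries labelled PSC4 replicate 1 the 3 genes missed the threshold in the fit with no block (Has2 -0.59, adjusted p = 0.0590; Has3 -1.24, 0.0733; Hyal1 0.82, 0.0548). With the replicate block and without those libraries, Has2 (-0.61, 0.0436), Hyal1 (0.84, 0.0428) and Cemip (-0.60, 0.0202) were called and Has3 was not (-1.25, 0.0738). Without the T6 libraries Has2 (-0.94, 0.194), Has3 (-1.93, 0.0967) and Hyal1 (0.91, 0.137) were not called. Has2 also lost it without CM PSC4 replicate 1 (-0.80, 0.0599) or neratinib PSC5 replicate 2 (-0.76, 0.0697), and Hyal1 without CM PSC4 replicate 2 (0.74, 0.0555) or neratinib PSC5 replicate 2 (0.75, 0.0560).

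**Figure D2:**
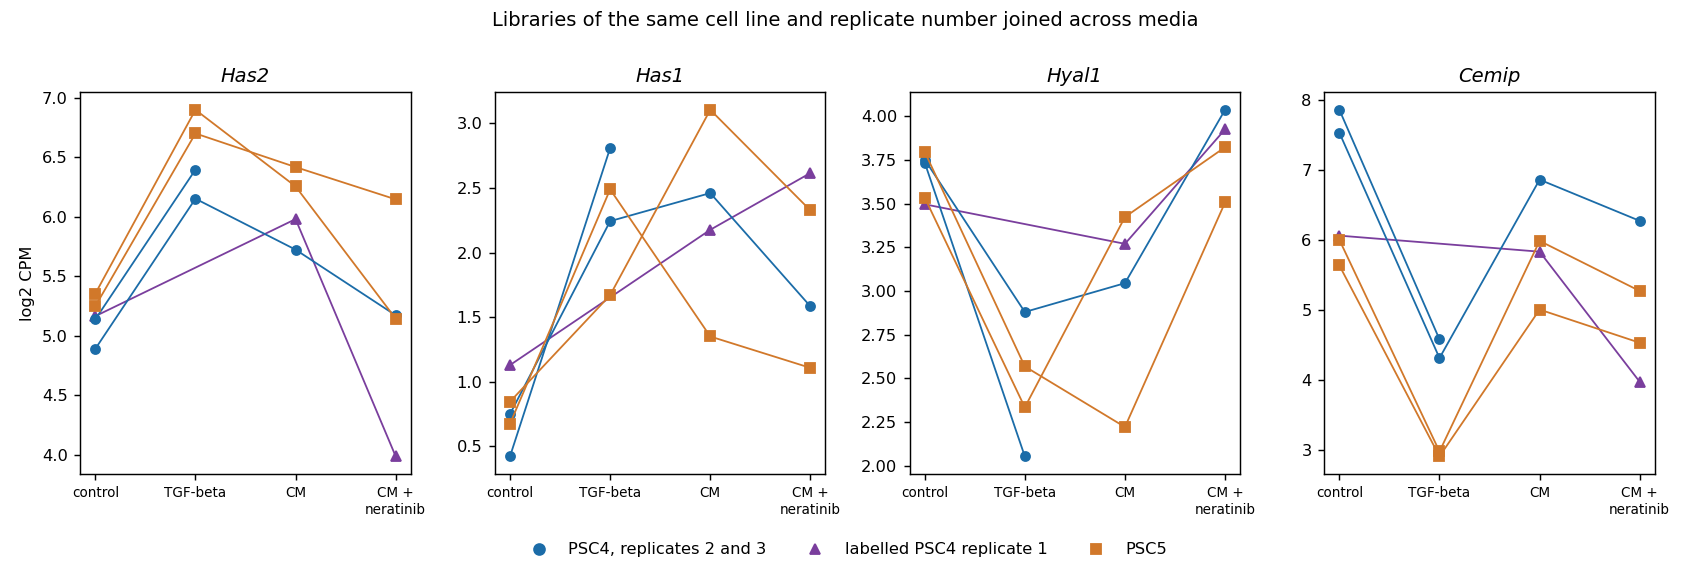
Log2 CPM of Has2, Has1, Hyal1 and Cemip by medium, with libraries of the same cell line and replicate number joined (blue circles PSC4 replicates 2 and 3, purple triangles labelled PSC4 replicate 1, orange squares PSC5; PSC4 replicate 1 has no TGF-beta library and PSC4 replicate 3 none in CM). Each of the 4 lines from CM to CM with neratinib falls for Has2 and Cemip and rises for Hyal1.

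**Figure D3:**
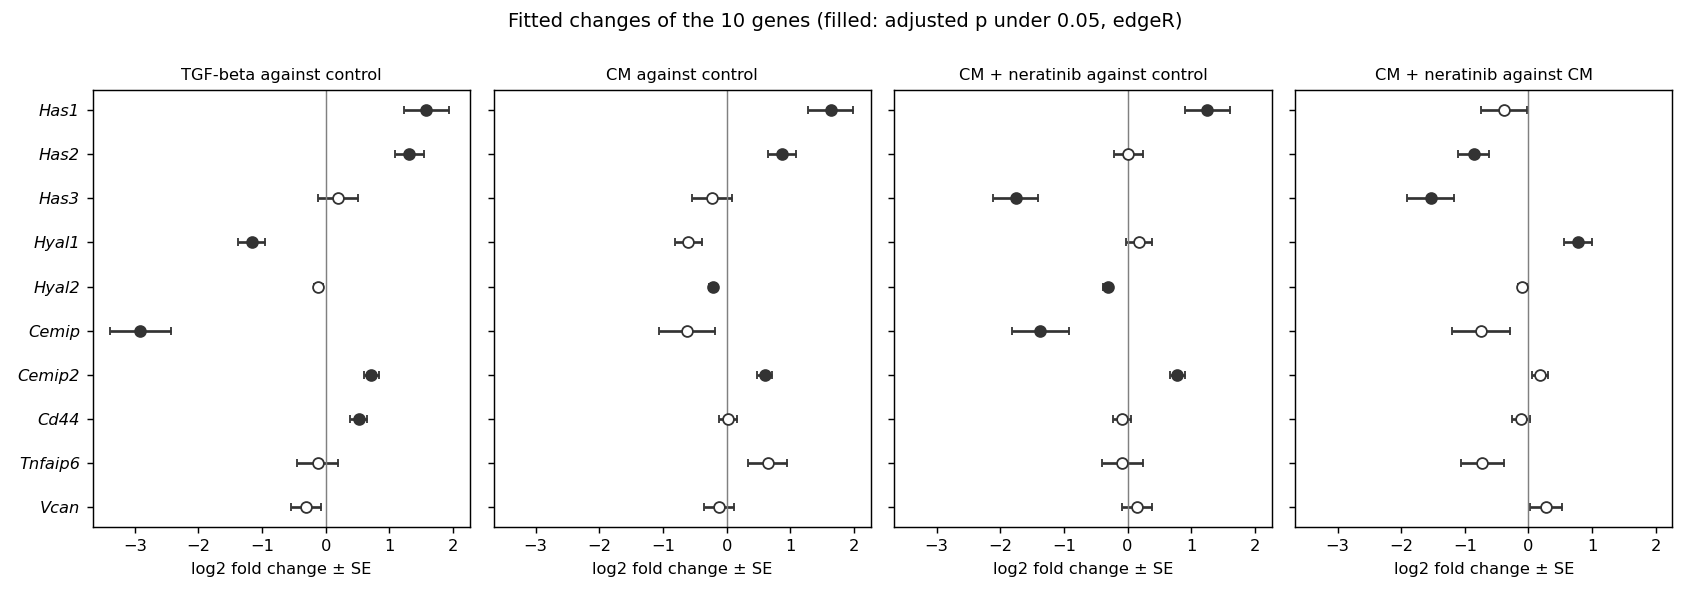
Fitted log2 fold changes (horizontal axis, bars 1 SE) of the 10 genes in 4 comparisons, with filled points for an adjusted p under 0.05. Cemip under TGF-beta (-2.92) is the furthest from 0, and Cemip2 lies to the right in all 3 comparisons with control (0.72, 0.60 and 0.78).

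The 3 comparisons with control share its 5 libraries, so they are given side by side and no overlap is drawn from them. The direct comparisons of the treated groups share the TGF-beta libraries. CM stood above TGF-beta for Cemip (log2 2.29, SE 0.48, 4.91-fold, adjusted p = 0.00177) and below it for Cd44 (-0.49, SE 0.15, adjusted p = 0.0168). These are 2 of 10 against 35.3% called over all genes (17.8% higher and 17.5% lower). Has2 (-0.44, interval of 2 SE -0.92 to 0.03) and Has1 (0.06, -0.67 to 0.78) were not called, nor was Hyal1 (0.56, 0.13 to 1.00, adjusted p = 0.0573). Hyal1 passed without TGF-beta PSC4 replicate 2 (0.71, 0.0369) or CM PSC5 replicate 1 (0.76, 0.00606), and Tnfaip6 (0.77, adjusted p = 0.0861) without the T6 libraries (1.06, 0.0495). The Cd44 call was lost without TGF-beta PSC4 replicate 3 (-0.39, 0.0666), CM PSC4 replicate 2 (-0.41, 0.0599) or the T6 libraries (-0.41, 0.152). Without the libraries labelled PSC4 replicate 1, Has2 passed as well (-0.48, adjusted p = 0.0467).

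CM with neratinib against TGF-beta gave 6 calls of 10, where 44.0% of all genes were called (23.1% higher and 20.9% lower). Hyal1 (log2 1.34, SE 0.22, adjusted p = 0.000209) and Cemip (1.54, SE 0.48, adjusted p = 0.0162) were higher. Has2 (-1.30, SE 0.24, adjusted p = 0.000557), Has3 (-1.96, SE 0.37, adjusted p = 0.000623), Cd44 (-0.61, SE 0.15, adjusted p = 0.00365) and Hyal2 (-0.20, SE 0.07, adjusted p = 0.0374) were lower. Cemip was lost without the T6 libraries (0.73, adjusted p = 0.287), without neratinib PSC4 replicate 2 (1.28, 0.0650) and without neratinib PSC5 replicate 2 (1.29, 0.0522). Cd44 was lost without the T6 libraries (-0.53, 0.0570). Hyal2 was lost with the replicate block (-0.19, 0.0548), without any of 6 of the 8 libraries, without the T6 libraries (-0.24, 0.0774) and without those labelled PSC4 replicate 1 (-0.20, 0.0678).

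Between the cell lines, with the media in the same fit, no hyaluronan gene passed the threshold, where 6.97% of all genes did (2.18% higher in PSC5 and 4.78% lower). Cemip was at -1.13 (SE 0.33, adjusted p = 0.0500026) and Has2 at 0.55 (SE 0.17, adjusted p = 0.0558), the 2 of 10 with an unadjusted p under 0.05. Without the libraries labelled PSC4 replicate 1 both passed, Cemip at -1.54 (adjusted p = 3.25e-05) and Has2 at 0.48 (0.0106), and both passed without any 1 of these 3 libraries. In tests of whether the TGF-beta, CM or neratinib effect differed between the lines, none of the 10 had an unadjusted p under 0.05, and edgeR called 0 of 13923 genes (0% in each, with 601, 43 and 237 genes at an unadjusted p under 0.05). T6 against T8 media also gave 0 calls over all genes by edgeR (0%), with 906 genes at an unadjusted p under 0.05. Cemip2 was the 1 member among these (-0.35, SE 0.11, adjusted p = 0.681), and Has1 was at -0.99 (SE 0.48, adjusted p = 0.783).

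Genes that supply the UDP-sugar precursors were measured as a list of 13, all tested. This list and those below were chosen with earlier results of these data known, so their counts beside all genes are descriptions. Under TGF-beta 9 were called higher and 1 lower (19.7% and 20.5% of all genes), with a median log2 change of 0.39 beside -0.02 over all genes. Gfpt2, which starts the hexosamine pathway, rose from 33.3 ± 3.39 CPM (SD, n = 5) to 84.9 ± 16.9 (n = 4), a log2 change of 1.31 (SE 0.15, adjusted p = 7.78e-06). Pgm1 (1.17) and Gpi1 (0.93), which interconvert hexose phosphates, rose as well. In CM 5 rose and none fell (7.05% and 7.14% of all genes; median 0.15), led by Gfpt2 (1.25), the hexokinase Hk2 (1.15) and Pgm1 (0.78), and 2 of the 13 were called without the T6 libraries. With neratinib against control 7 rose and 2 fell (22.2% and 20.9% of all genes; median 0.32), led by Hk2 (1.72), Pgm1 (1.28) and Gpi1 (1.19). Within CM, neratinib went with 2 higher (Hk2 0.57, Gnpnat1 0.51) and 2 lower, beside 10.8% and 9.63% of all genes. Of the lower genes, Gfpt1, the other hexosamine entry enzyme, was at -0.37. The calls of Hk2 and Gnpnat1 were each lost in 5 of the 8 fits that left out 1 library. Without the libraries labelled PSC4 replicate 1, 2 of the 13 were called, and without the T6 libraries none. CM differed from TGF-beta in 6 genes, 2 higher and 4 lower, and CM with neratinib in 7, 3 higher and 4 lower, beside 35.3% and 44.0% called over all genes. Uap1l1 was higher than under TGF-beta in both (0.84 and 1.08). The shares over all genes given beside these counts are those of the main fit.

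Of 6 ADAMTS proteases known to cut versican, 4 fell under TGF-beta and none rose, where 20.5% of all genes fell and 19.7% rose, with a list median of -2.56 beside -0.02 over all genes. Adamts1 fell from 257 ± 44.7 CPM (SD, n = 5) to 40.1 ± 16.3 (n = 4), a log2 change of -2.65 (SE 0.28, adjusted p = 5.43e-06). Adamts9 (-2.70), Adamts15 (-4.15, from 86 to 247 counts per library down to 1 to 13) and Adamts5 fell too. In CM, 1 of the 6 was called, Adamts1 at -1.18 (SE 0.26, adjusted p = 0.0101), and none without the T6 libraries. Over all genes 14.2% were called in that comparison (7.14% lower). With neratinib 3 were below control (20.9% of all genes), Adamts15 (-2.30, with 0 to 61 counts per library), Adamts1 (-1.44) and Adamts5 (-0.82). CM was higher than TGF-beta in 4 of the 6 (17.8% of all genes) and CM with neratinib in 3 (23.1%). Neratinib within CM gave no call by edgeR (20.5% of all genes were called) and 2 by DESeq2, and 3 with the replicate block. The shares over all genes given for this list are those of the main fit. Vcan itself was not called in any of the 6 comparisons.

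Among 21 other genes whose proteins bind hyaluronan, 8 were tested, and Hapln2, Lyve1 and Susd5 never passed 3 counts. Ptx3, a pentraxin that takes part in cross-linking hyaluronan with TSG-6, moved most. It was 98.7 to 208 CPM in control, 3.74 to 22 under TGF-beta (log2 -3.12, SE 0.40, adjusted p = 2.59e-05), 117 to 241 in CM and 264 to 425 with neratinib (1.39 against control, SE 0.35, adjusted p = 0.00574). Its change in CM against control was 0.54 on the log2 scale and was not called. Stab1, a scavenger receptor for hyaluronan, rose under TGF-beta (2.78) from 3 to 8 counts per library to 12 to 49, and Hmmr, an intracellular hyaluronan-binding protein of dividing cells, rose by 0.37. These made 3 of 8 called under TGF-beta, 2 higher and 1 lower, a share near the 40.2% over all genes. With the replicate block 5 were called, and 6 without the libraries labelled PSC4 replicate 1. The shares over all genes in those fits are not given here. In CM 1 rose (Stab1, at 12 to 31 counts per library) and 1 fell (Habp4, -0.27), where 7.05% of all genes rose and 7.14% fell. The Habp4 call (adjusted p = 0.0441 by edgeR) was lost without any one of 7 of the 9 libraries. With neratinib 4 of 8 rose against control (22.2% of all genes), among them Hapln4 (1.14) and Layn (0.46), a membrane receptor for hyaluronan, and none fell (20.9%).

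Of the other degradation genes, Hyal4, Hyal5, Hyal6 and Spam1 never passed 3 counts in a library and Hyal3 was not tested. Hexa, a subunit of lysosomal hexosaminidase, was 356 ± 48.2 CPM (SD, n = 5) in control, 235 ± 67.4 (n = 4) under TGF-beta (log2 -0.59, SE 0.11, adjusted p = 0.000776) and 530 ± 58.3 (n = 4) with neratinib (0.61 against control, SE 0.11, adjusted p = 0.000731). Against TGF-beta, Hexa was higher in CM (0.84) and with neratinib (1.20).

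**Figure D4:**
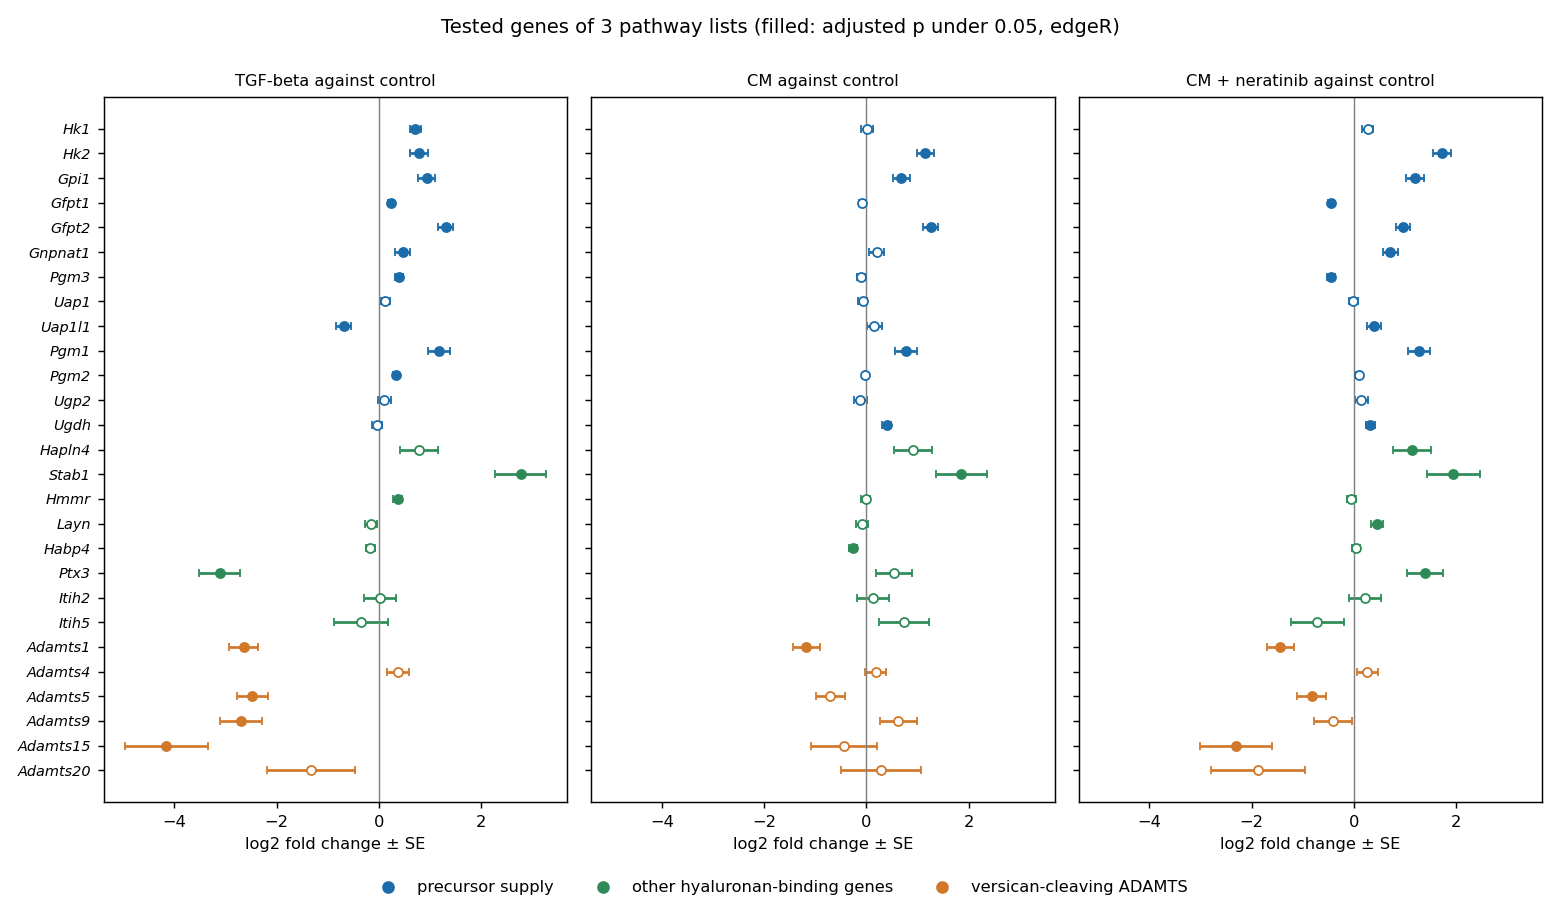
Fitted log2 fold changes (horizontal axis, bars 1 SE) of the tested genes of the precursor, ADAMTS and other hyaluronan-binding lists in the 3 comparisons with control, coloured by list, with filled points for an adjusted p under 0.05. Adamts1 is left of 0 in all 3 (-2.65, -1.18 and -1.44), Ptx3 is at -3.12 under TGF-beta and 1.39 with neratinib, and Gfpt2 is to the right in all 3.

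For each of the 10, the genes with the most similar profile were listed by Pearson r of log2 CPM over the 17 libraries, among genes with a mean of at least 10 CPM. The libraries share media, lines and depth, so r is a description. Cemip2 had the closest match, Slc31a1 (r = 0.96), followed by Chst11 (0.95) and Rtn3 (0.95). Cd44 was nearest to Tsc22d1 (0.95), Galnt1 (0.93) and Ywhaz (0.92), and Cemip to Glb1l (0.95), Lrrc49 (0.95) and Cbr1 (0.94). Hyal1 went with Thap3 (0.94), Zfp951 (0.89) and Arntl2 (0.89). Has2 was nearest to Pdia3 (0.91), Hltf (0.90) and Slc30a6 (0.89), and Has1 to Dad1 (0.90), Dnajb6 (0.90) and Srebf2 (0.88). Has3 went with Ank1 (0.90), Ergic2 (0.85) and Fam149b (0.85), Tnfaip6 with Tent5a (0.88), Smpd1 (0.87) and Pigt (0.86), and Hyal2 with Sh3glb2 (0.86), Slc9a3r2 (0.86) and Dlk1 (0.85). Vcan had the loosest match, Fbxo4 (0.81), then Ergic3 (0.80) and Mmp16 (0.79).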

How the data were processed

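The deposited files hold expected counts per Ensembl gene, 1 per library, not scaled to depth or length, made by the authors with Salmon 1.4.0 on GRCm38 (mm10), per the submitters' processing notes, which also name DESeq 2. The annotation release and strand use are not given in the sources used here. Of positive values, 74.8% were not whole, and all were rounded; no library total moved by more than 308 counts. Symbols were found for 35437 of 35896 IDs. Positions and exon lengths came from GENCODE M21.

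Counts of all 17 libraries were fitted by edgeR 4.0.16 (R 4.3.3) in 1 quasi-likelihood model with group and cell line, TMM factors and filterByExpr (at least 10 counts in enough libraries, 15 in total). Genes with a Benjamini-Hochberg adjusted p under 0.05 over 13923 genes are called. Beside these, the cell line, the 3 line interactions and the T6 against T8 media were tested, the last in the fit that blocked on line and number. Floors and counts cover counting error only. In the opposite-strand overlaps Has3 meets Chtf8, Hyal1 Gm16343, Hyal2 Gm9917, Cd44 Gm23731, Cemip2 AC148016.1, and Vcan Gm16318 and Gm4117. The fit was tested on simulated data.

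Same-numbered libraries of a line share a passage in the labels. After removal of group means all 22 such pairs correlated above 0.1 across genes (median 0.30). So did 14 of 32 pairs of the same line with other numbers (median -0.08) and 14 of 54 pairs between lines (median -0.18). Control PSC5 replicate 1 correlated more with TGF-beta PSC5 replicate 2 (0.35) than with TGF-beta PSC5 replicate 1 (0.25). The numbers were taken to pair the libraries, which these correlations alone do not establish. No 2 libraries of the same group agreed within sampling noise. Named list genes were taken from the 3 called genes with the largest change per list and comparison, at 1 CPM or more in the higher group. Outside this rule, Adamts5 under TGF-beta, Stab1 and the uncalled Ptx3 in CM, and Gfpt2 with neratinib in a caption are named. The members and lists were chosen with earlier results of these data known. Alternatives were RLE and upper-quartile factors, DESeq2 1.42.0, no filter, the block, no line term, only the groups compared, each line alone, each library left out and the libraries labelled PSC4 replicate 1 left out. Leaving out the T6 libraries, and the block without PSC4 replicate 1, were added after seeing the data. Some genes of the marker and degradation lists are not reported here.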

Additional observations from a re-analysis of the deposited data

Results flagged for a closer look

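In 40 groups of 4 or 5 libraries, 1 per gene and medium, 3 had a library whose gap to the nearest other exceeded Dixon's 95% critical value, where chance gives about 1 in 20. Has3 was 0.367 CPM (8 counts) in CM with neratinib PSC5 replicate 2, above the other 3 libraries of 4 counts each. Hyal2 was 31.5 CPM in CM PSC5 replicate 2, above 27.5 to 28 CPM in the other 3. Tnfaip6 was 6.08 CPM in control PSC4 replicate 1, above 4.58 to 4.72 CPM in the other 4 control libraries, and that library is one of the 3 labelled PSC4 replicate 1 that stood apart from their line.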

How the results depend on the processing

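Over the 10 genes and 6 comparisons, 1068 of 1220 alternative values kept their direction and their side of the threshold, 95 lost the call, 17 gained one and 40 changed sign. The cause of these changes was not tested. The main fit, with group and cell line, did not use the pairing by number. The replicate block (cell line and number), the paired fit, raised the genes called from 1976 to 3240 for CM against control and from 2850 to 4563 for neratinib within CM. Among the members it changed the calls of Hyal1 in CM (-0.68), Cemip with neratinib within CM (-0.89) and Hyal2 with neratinib against TGF-beta (-0.19), and the signs of 2 uncalled values, Has1 in CM against TGF-beta (-0.10) and Tnfaip6 with neratinib against TGF-beta (-0.064).

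With PSC4 libraries alone, 2537 genes were called for TGF-beta, 136 for CM and 2860 for neratinib against control, 260 within CM, and 1829 and 2978 for CM and neratinib against TGF-beta. With PSC5 alone these were 2629, 2, 1362, 60, 2531 and 3173. Members called in PSC4 alone were 5 for TGF-beta, 0 for CM and 3 for neratinib against control, 0 within CM, and 0 and 3 for CM and neratinib against TGF-beta. In PSC5 alone they were 2, 0 and 0 for TGF-beta, CM and neratinib against control, 0 within CM, and 1 and 3 against TGF-beta. Within 1 line the TGF-beta calls of Has1 (PSC5, 1.38, adjusted p = 0.183), Hyal1 and Cemip2 (PSC5) and Cd44 (both lines) were lost.

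Signs that turned were all of uncalled values. PSC4 alone gave Tnfaip6 0.052 and Vcan 0.052 for TGF-beta, Has3 0.082 and Vcan 0.059 for CM, Has2 -0.36 for neratinib against control, Has1 -0.23 in CM against TGF-beta, and Cemip2 -0.093 and Tnfaip6 -0.54 with neratinib against TGF-beta. PSC5 alone gave Cd44 -0.023 for CM and Tnfaip6 0.28 for neratinib against control. Upper-quartile factors gave Cd44 -0.020 for CM and Has2 -0.047 for neratinib against control.

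Without the 4 T6 libraries, 1079 genes were called for CM against control and 187 within CM. Members called were 2 for CM against control, 0 within CM and 3 for neratinib against TGF-beta, and signs turned for Vcan in CM (0.020), Tnfaip6 with neratinib (0.26) and Has1 with neratinib against TGF-beta (0.12). Without the libraries labelled PSC4 replicate 1, 0 members were called within CM (3 with the block: Has2, Hyal1 and Cemip) and 2 between lines, and Tnfaip6 with neratinib was 0.16 against control (0.068 with the block). Fitting only the 2 groups compared left 602 genes and 0 members within CM and gave 4 members for CM against TGF-beta. RLE factors, or no filter, gave 1 member between lines. Where no count over all genes stands beside a member count in this paragraph, the share in that fit is not given.

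Leaving out 1 library at a time gave 801 to 1793 genes for CM against control and 1748 to 3685 within CM. Members called ranged from 2 to 5 for CM and 3 to 6 for neratinib against control, and from 1 to 4 within CM. They ranged from 1 to 3 for CM against TGF-beta and 0 to 2 between lines. For neratinib against control, CM against TGF-beta and between lines, the main fit called 43.1%, 35.3% and 6.97% of all genes. The shares in the fits without 1 library are not given here for those comparisons. Log2 changes that crossed 0 ranged from -0.049 to 0.35 (Has3) and -0.27 to 0.022 (Tnfaip6) for TGF-beta, -0.057 to 0.12 (Cd44) for CM, and, for neratinib against control, -0.29 to 0.27 (Has2), -0.18 to 0.0032 (Cd44) and -0.62 to 0.12 (Tnfaip6). Within CM, Has1 ranged from -0.63 to 0.047. Against TGF-beta, Has1 ranged from -0.38 to 0.27 and Vcan from -0.069 to 0.32 in CM, and Cemip2 from -0.077 to 0.15 and Tnfaip6 from -0.51 to 0.24 with neratinib. Has3 with neratinib rests on 4 to 8 counts per library, so depth limits its fold change.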
